A study of Mus musculus with 12 samples.

Results

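The translation initiation factors described here are the mouse genes whose symbol begins with Eif and a digit from 1 to 6, other than the sex-chromosome pair Eif2s3x and Eif2s3y. Each was read by the probe set with that gene as its only symbol and the highest mean log2 signal, which gave 45 genes of 18193 on the array. They were measured on 12 Affymetrix arrays with total RNA from haematopoietic stem cells that flow cytometry had purified out of mouse bone marrow. Wild-type and Nras mice each gave GFP- and GFPhigh cells, which makes 4 groups of 3 biological replicates. The Nras mice carried NrasG12D/+, an allele coding for an oncogenic RAS GTPase, and the labels call GFP- cells cycling and GFPhigh cells quiescent. All groups, controls included, had received doxycycline in the drinking water for 6 weeks and were sampled 12 weeks after it was withdrawn. The promoter or Cre that drives the allele and the label, the age of the mice and the sorting gates are not given in the sources used here. In sorted cells measured in bulk, fewer cells of a type and less RNA per cell cannot be told apart.

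Initiation is the step of protein synthesis at which a ribosome is brought to the start codon. The factor eIF2 carries the initiator tRNA and is recharged by eIF2B, eIF3 holds the small ribosomal subunit and the mRNA together, and the eIF4 factors bind the cap and unwind the leader. Blood stem cells are known for a low rate of protein synthesis, and RAS signals reach the cap-binding step through the MNK and mTOR kinases.

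Markers of cell types were read first. Of 8 stem cell markers on the array, Kit, Slamf1, Procr, Mecom, Hlf, Hoxb5 and Fgd5 were above the array median on all 12 arrays and Tek on 11. The progenitor markers Cd34, Flt3 and Cd48 were above it on 12, 9 and 3 arrays. S100a8, S100a9, Lyz2, Cd79b and Pecam1, listed for other cell types, were above it on all 12. Being above the median therefore does not set stem cells apart. The summed signal of 7 granulocyte markers was 42234 and 55192 on Nras GFPhigh replicates 1 and 2 and 459 to 12419 on the other 10 arrays. The same arrays had macrophage marker sums of 10662 and 9220, against 2884 to 4726 elsewhere, and T cell marker sums of 473 and 1022, against 54.1 to 258. Not every macrophage marker followed its sum. Lyz2, at up to 9050, and Adgre1, at up to 1275, were highest on Nras GFPhigh replicate 1. Csf1r was highest on wild-type GFPhigh replicate 3 and Cd68 on Nras GFP- replicate 2. The T cell markers Cd3e and Cd3g, highest on Nras GFPhigh replicate 2, were above the array median on 1 and 0 arrays. The ratio of 3' to 5' Gapdh signal, a sign of RNA quality, was highest on Nras GFPhigh replicates 1 and 3, at 7.28 and 5.70, and 2.57 to 4.48 on the other arrays. Nras GFPhigh replicates 1 and 2 also had 99th percentiles of signal of 9830 and 9500, against 5868 to 8053 elsewhere, and their brightest probe set, the 3' end of the CreX spike-in control, read 33269 and 33167 against 11748 to 21527. Limma's array weights were lowest, 0.308 to 0.522, on Nras GFP- replicate 1, Nras GFPhigh replicates 1 and 2 and wild-type GFPhigh replicate 2, and 0.903 to 2.46 on the others. The part of these differences in the results was not tested beyond the values without those arrays given below.

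Stretches of 6 promoters are shown because CACGTG, the E-box letters bound by MYC, stood in their upstream bases; Eif4e and Eif4a1 are known MYC targets, and the other 4 belong to genes whose groups did not overlap in a comparison below. The sequences are from RefSeq on GRCm38.p6, 5′ to 3′ on the gene's strand, with CACGTG in capitals.
Eif1b, chr9:120492555-120492605, + strand: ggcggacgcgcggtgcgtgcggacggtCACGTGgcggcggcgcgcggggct
Eif3f, chr7:108934320-108934379, + strand: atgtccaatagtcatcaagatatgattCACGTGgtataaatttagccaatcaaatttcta
Eif3k, chr7:28981900-28981959, - strand: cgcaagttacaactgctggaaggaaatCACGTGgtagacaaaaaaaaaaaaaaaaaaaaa
Eif4h, chr5:134639473-134639532, - strand: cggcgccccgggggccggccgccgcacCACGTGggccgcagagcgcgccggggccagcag
Eif4e, chr3:138527177-138527236, + strand: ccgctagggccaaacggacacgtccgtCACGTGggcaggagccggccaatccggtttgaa
Eif4a1, chr11:69672580-69672639, - strand: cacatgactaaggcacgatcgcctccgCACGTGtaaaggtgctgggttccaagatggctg
The first letter of CACGTG lay 24 bases before the transcript start in Eif1b, 68 in Eif3f, 44 in Eif3k, 96 in Eif4h, 64 in Eif4e and 189 in Eif4a1.

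The promoter table held 49 promoters of 36 of the 45 genes. In the 250 bases before the start, CACGTG, which reads the same on both strands, occurred in 10 of these 49 promoters (20.4%) and in 6.02% of all 32851 promoters in the table. Besides the genes shown, Eif5a and Eif5a2 held it. CCGGAAGT, the core letters of an ETS site, or ACTTCCGG on the other strand, occurred in 5 of the 49 (10.2%), in Eif3d, Eif3l, Eif4e2, Eif5a and Eif5a2, against 2.88% of all promoters. The letters describe the windows only. Averaged over both genotypes, in GFPhigh against GFP-, the 8 genes with CACGTG had a median log2 fold change of -0.019, 4 higher and 4 lower, and the 27 tested genes with a promoter without it had -0.017. The medians were 0.000066 and 0.093 in Nras against wild-type averaged over both populations. Within wild-type, GFPhigh against GFP- gave -0.14 for the genes with CACGTG, 1 higher and 7 lower, and 0.010 for those without, and within Nras 0.070 and -0.26. Nras against wild-type gave -0.026 and 0.15 in GFP- cells and 0.15 and -0.12 in GFPhigh cells. These differences were not tested.

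No initiation factor gene passed an adjusted p under 0.05 in any comparison. Of the 45 genes, 44 were above the median of their array on at least 3 arrays and were tested among 12083 genes with limma, Benjamini-Hochberg adjusted over all of them. In GFPhigh against GFP- averaged over both genotypes 0 of 44 passed, and 0 of 12083 genes did. At an unadjusted p under 0.05, 3 were higher and 1 lower, where 4.36% of all tested genes were higher and 4.51% lower. In Nras against wild-type averaged over both populations 0 of 44 passed and 0.00828% of all genes did, which is 1 gene. At an unadjusted p under 0.05, 3 were higher and 1 lower, against 2.66% and 5.12% of all genes.

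Within each genotype or population the counts differed between comparisons. For GFPhigh against GFP-, 0 higher and 1 lower had an unadjusted p under 0.05 in wild-type (background 1.05% and 1.15%), and 3 higher and 2 lower in Nras (6.2% and 5.97%). Nras against wild-type had 0 and 0 in GFP- cells (0.968% and 3.42%), and 2 higher and 0 lower in GFPhigh cells (3.17% and 5.12%). The interaction of genotype and population had 0 and 0 (2.43% and 2.25%). These comparisons share arrays, so their counts are not independent of each other.

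The genes did not move as a block in either direction. Their median log2 fold change for GFPhigh against GFP- averaged over both genotypes was -0.02, with 20 higher and 24 lower, and 0.02 over all tested genes. Nras against wild-type averaged over both populations gave 0.05, with 24 higher and 20 lower, and -0.15 over all genes. In GFPhigh cells alone the Nras median was 0.11, and -0.09 over all genes. Quantile normalization turned the 0.05 to -0.06 and the 0.11 to -0.12, with all genes at -0.09 and -0.10. Leaving out Nras GFPhigh replicate 1 turned the 0.11 to -0.05, and leaving out replicate 2 gave 0.27. The median over these genes on an array, each taken relative to its own mean, varied by 0.132 between replicates (log2, pooled SD). Bright probe sets had other medians than dim ones: the 1209 tested genes with the brightest 1 in 10 probe sets had 0.17 in this comparison, and the 17 initiation factor genes among them 0.21.

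**Figure D1:**
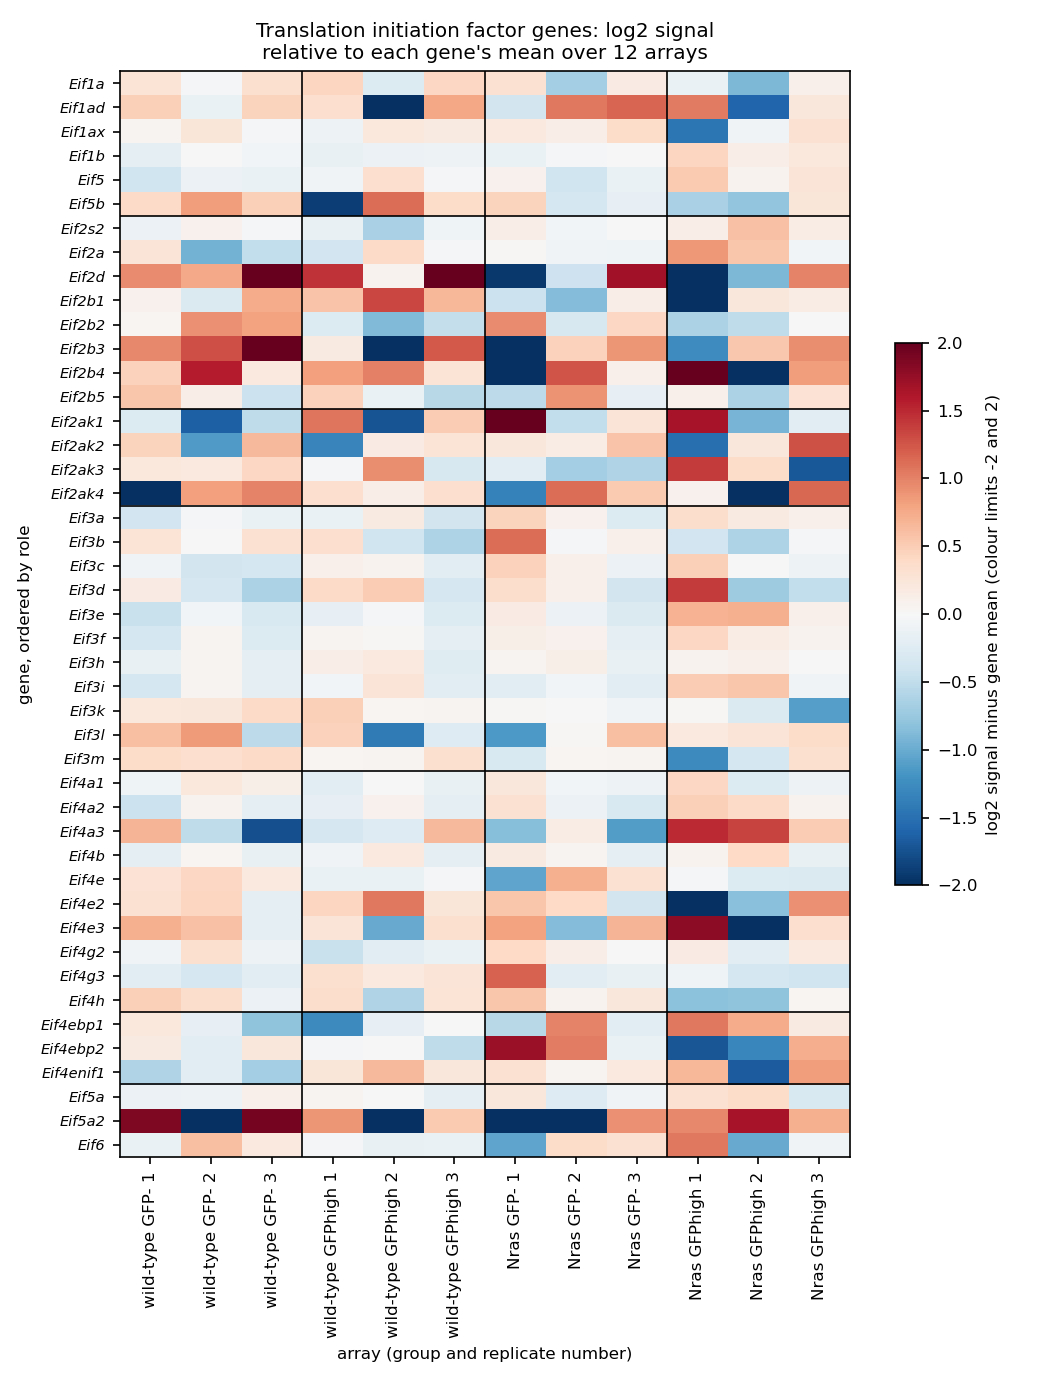
Each row is 1 of the 45 genes, grouped by role, and each column 1 of the 12 arrays; the colour is the log2 signal minus the gene's mean over all arrays, limited at -2 and 2. Rows such as Eif3h, Eif4b and Eif5a are pale throughout, and Eif2d, Eif2b3, Eif2b4 and Eif5a2 change strongly between replicates of one group.

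How far a gene varied depended on the gene. The highest array was less than 2 times the lowest for 12 genes: Eif3a, Eif3c, Eif3f, Eif3h, Eif3i, Eif4a1, Eif4a2, Eif4b, Eif4g2, Eif1b, Eif5 and Eif5a. It was at least 10 times the lowest for another 10. For Eif2d, Eif2b3, Eif2b4 and Eif5a2 among them, the lowest signals were below the median of their array, so the ratio has no firm size. The median SD between replicates was 0.464 (log2) over the 44 tested genes and 1.04 over all tested genes. Among bright probe sets it was 0.236 for the 17 initiation factor genes and 0.317 for all 1209.

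Among the start codon factors, the leading gene was Eif5, the activator of eIF2's GTP hydrolysis. It read 6306, 7655 and 7538 in GFP- and 7885, 10409 and 8096 in GFPhigh cells of wild-type mice, and 8772, 6299 and 7539 in GFP- and 11965, 8671 and 9951 in GFPhigh cells of Nras mice. GFPhigh lay above GFP- without overlap in wild-type; in Nras the ranges overlapped between 8671 and 8772. The log2 fold change over both genotypes was 0.36 ± 0.12 (SE, adjusted p = 0.466). With all 5 Eif5 probe sets averaged it was 0.13. Within wild-type the value was 0.29 ± 0.17 (adjusted p = 1.0), and -0.052 with the probe sets averaged. Within Nras it was 0.44 ± 0.17 (adjusted p = 0.356), and -0.051 with each array centred on its median.

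Eif1b, a close relative of the start codon factor eIF1, was read by 1 probe set. It read 2998, 3398 and 3301 in GFP- and 3090, 3151 and 3200 in GFPhigh cells of wild-type mice, and 3105, 3317 and 3448 in GFP- and 4598, 3769 and 3960 in GFPhigh cells of Nras mice. The 3 Nras GFPhigh arrays were the highest of the 12, with a mean of 4109 ± 434 (SD, n = 3) against 3147 ± 55 in wild-type GFPhigh. How many of all tested genes had these 3 arrays highest was not counted. Replicates 1, 2 and 3 of Nras GFPhigh were the highest single array for 14.5%, 16.7% and 6.37% of all tested genes. Replicate 3 read between the other 2. Its granulocyte marker sum was 5720, its 99th percentile 7252 and its ratio of 3' to 5' Gapdh signal 5.70. The part of these values in the Eif1b signals was not tested.

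For the other factors of this role the groups overlapped in each comparison made. Eif1ax, which encodes the scanning factor eIF1A, ranged from 3979 to 5513 on 11 arrays and read 1565 on Nras GFPhigh replicate 1. Its relative Eif1a ranged from 913 to 2282. Eif5b has a product that joins the large ribosomal subunit. It averaged 2523 ± 432 in GFP- and 2105 ± 1613 in GFPhigh cells of wild-type mice (SD, n = 3), with 457 on wild-type GFPhigh replicate 1. In Nras mice it averaged 1712 ± 516 in GFP- and 1352 ± 566 in GFPhigh cells. Eif1ad, an eIF1A-related gene, ranged from 86.9 to 2082.

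**Figure D2:**
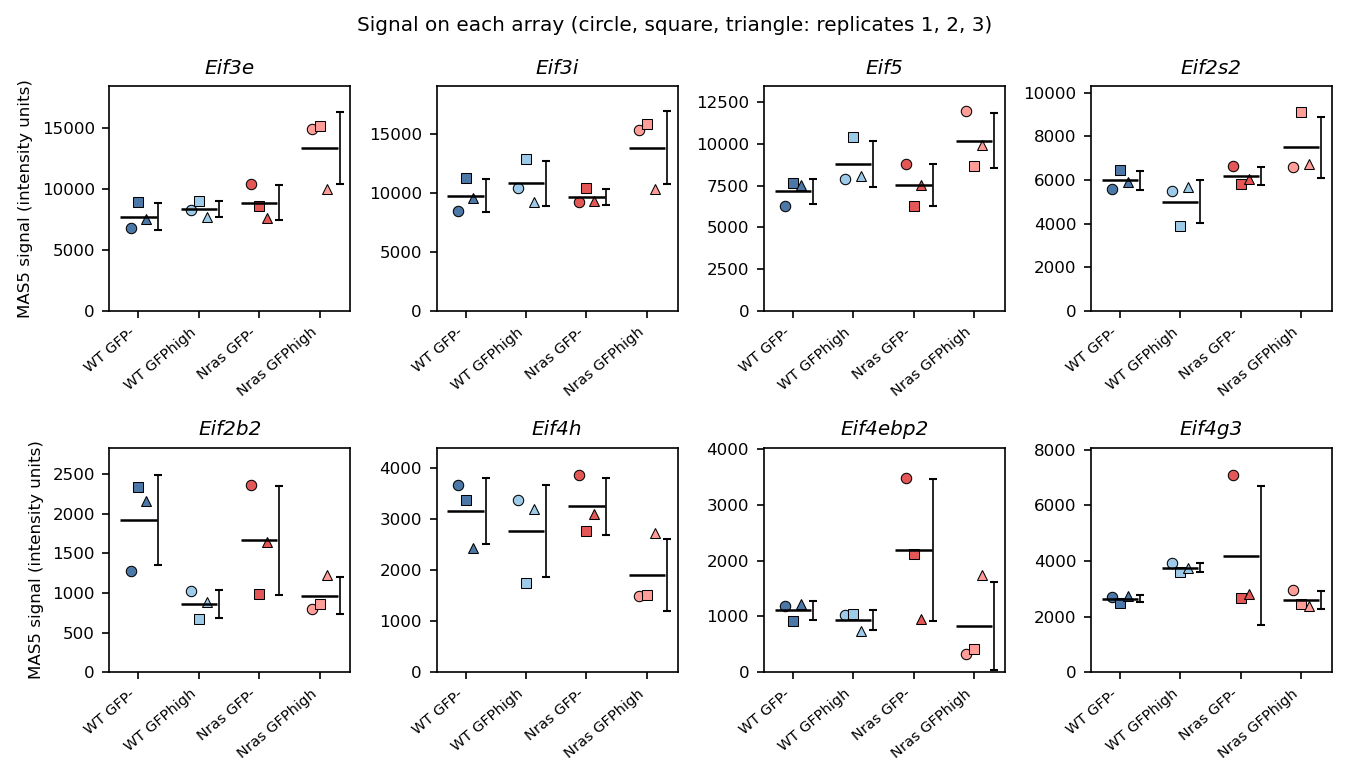
Signal in MAS5 units from 0 on each array for 8 genes; circles, squares and triangles are replicates 1, 2 and 3, horizontal lines are group means and the bars to the right are 1 SD (n = 3). For Eif3e and Eif3i, Nras GFPhigh replicates 1 and 2 are the highest 2 of the 12 arrays, and replicate 3 lies below them, at 9975 and 10309.

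For eIF2, Eif2s2 encodes the beta subunit. It read 5583, 6464 and 5900 in GFP- and 5472, 3868 and 5681 in GFPhigh cells of wild-type mice, and 6660, 5827 and 6051 in GFP- and 6613, 9112 and 6749 in GFPhigh cells of Nras mice. All Nras GFPhigh arrays were above all wild-type GFPhigh arrays, and the log2 fold change was 0.59 ± 0.19 (SE, adjusted p = 0.481). It was 0.32 ± 0.14 over both populations (adjusted p = 0.619), and the interaction was 0.54 ± 0.27 (adjusted p = 0.956), or -0.099 with each array centred on its median.

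The probe sets of Eif2s2 differed. Of 5 that were above the array median on all 12 arrays, the other 4 gave -0.40, 0.08, -0.31 and 0.25 for Nras against wild-type in GFPhigh cells. With probe sets whose names end in _s_at, _x_at or _a_at left out, the value averaged over both populations turned to -0.23.

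The guanine exchange factor eIF2B recharges eIF2 and has 5 kinds of subunit. Eif2b2, its beta subunit, read 1272, 2334 and 2157 in GFP- and 1022, 667 and 889 in GFPhigh cells of wild-type mice, and 2372, 991 and 1640 in GFP- and 795, 868 and 1233 in GFPhigh cells of Nras mice. GFPhigh lay below GFP- without overlap in wild-type, with a log2 fold change of -1.13 ± 0.50 (SE, adjusted p = 1.0). Over both genotypes it was -0.93 ± 0.35 (adjusted p = 0.525, limma). Its other probe sets pointed the opposite way, at 1.21 and 0.81, and the mean over all 3 gave 0.36.

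Eif2b3, the gamma subunit, showed large differences with as large a spread. It read 339, 426 and 944 in GFP- and 198, 13 and 411 in GFPhigh cells of wild-type mice, and 11.8, 241 and 324 in GFP- and 73.6, 253 and 335 in GFPhigh cells of Nras mice. Wild-type GFP- was above Nras GFP- without overlap. There the log2 fold change was -2.40 ± 1.42 (SE, adjusted p = 0.983), and -0.88 without Nras GFP- replicate 1. In wild-type, GFPhigh against GFP- was -2.34 ± 1.42 (adjusted p = 1.0), or -0.85 without wild-type GFPhigh replicate 2, and the interaction was 3.26 ± 2.01 (adjusted p = 0.956), or 1.74 without Nras GFP- replicate 1, 1.77 without wild-type GFPhigh replicate 2 and 1.11 without the 4 arrays of lowest weight. The signals of 11.8 and 13 were below the median of their array, so these fold changes have no firm size.

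Of the other eIF2B subunits, Eif2b1 (alpha) read 706, 1201 and 754 in wild-type GFPhigh and 94.8, 554 and 526 in Nras GFPhigh, which did not overlap. Eif2b4 (delta) ranged from 11.1 to 1188 and Eif2b5 (epsilon) from 495 to 1440, with overlap in all comparisons. Eif2d, a factor that can deliver tRNA to the ribosome without eIF2, read 506, 441 and 1434 in GFP- and 713, 274 and 1050 in GFPhigh cells of wild-type mice, and 68.4, 197 and 839 in GFP- and 1.9, 140 and 523 in GFPhigh cells of Nras mice. Its log2 fold change for Nras against wild-type averaged over both populations was -2.56 ± 1.17 (SE, adjusted p = 0.639), and -0.74 without the 4 arrays of lowest weight. In GFPhigh cells it was -3.51 ± 1.65 (adjusted p = 0.618), and -0.17 without Nras GFPhigh replicates 1 and 2. The signal of 1.9 on replicate 1 was below that array's median. Eif2a, another such factor, averaged 1521 ± 656 in wild-type GFP- and 2677 ± 820 in Nras GFPhigh (SD, n = 3), with overlap.

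The 4 kinases that phosphorylate eIF2 under stress varied widely between replicates. Eif2ak1, the haem-regulated kinase, read 900, 352 and 767 in GFP- and 2303, 331 and 1547 in GFPhigh cells of wild-type mice, and 5376, 778 and 1308 in GFP- and 3443, 574 and 935 in GFPhigh cells of Nras mice. For Nras against wild-type in GFP- cells its log2 fold change was 1.5 ± 0.93 (SE, adjusted p = 0.983), and 0.69 without Nras GFP- replicate 1. The mean over its 5 probe sets gave 0.056. On the probe set used, replicate 1 was highest and replicate 2 lowest in each of the 4 groups. Eif2ak3 (PERK), the kinase of the endoplasmic reticulum, read 900, 896 and 1033 in wild-type GFP- and 674, 486 and 514 in Nras GFP-, without overlap, and 242 to 2051 in Nras GFPhigh. Eif2ak2 (PKR), activated by double-stranded RNA, ranged from 687 to 4693, and Eif2ak4 (GCN2), activated by lack of amino acids, from 84.8 to 802. On the probe sets used their groups overlapped throughout. A dimmer Eif2ak2 probe set, above the array median on all 12 arrays, read 5424, 1940 and 1080 in Nras GFPhigh. That was above wild-type GFPhigh (210, 103 and 809) and Nras GFP- (264, 269 and 902) without overlap. For Nras against wild-type in GFPhigh cells it gave 3.11 (log2), the probe set used 0.29 and another -0.37. These differences between probe sets were not tested.

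The eIF3 complex was read by 11 genes, all tested. Averaged over both populations, 9 were higher and 2 lower in Nras than in wild-type, and their median was 0.10 (log2). Of all genes 40.6% were higher, with a median of -0.15, and the 1209 genes with the brightest probe sets also had a median of 0.10. Of these 9, Eif3e and Eif3a had an unadjusted p under 0.05, where 2.66% of all genes were higher at that p. After adjustment 0 of 11 passed. Averaged over both genotypes, 7 were higher and 4 lower in GFPhigh than in GFP-, with a median of 0.10, and Eif3e and Eif3i had an unadjusted p under 0.05. Of all genes 51% were higher, with a median of 0.02, and 4.36% were higher at that p. The 1209 genes with the brightest probe sets had a median of 0.08.

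Eif3e, a subunit of the structural scaffold of eIF3, read 6801, 8909 and 7491 in GFP- and 8273, 9043 and 7692 in GFPhigh cells of wild-type mice, and 10429, 8574 and 7610 in GFP- and 14945, 15167 and 9975 in GFPhigh cells of Nras mice. Replicates 1 and 2 of Nras GFPhigh were the highest of the 12 arrays, and all 3 were above wild-type GFPhigh. The log2 fold change for Nras against wild-type in GFPhigh cells was 0.66 ± 0.18 (SE, adjusted p = 0.409). Averaged over both populations it was 0.43 ± 0.13 (adjusted p = 0.579), and for GFPhigh against GFP- in Nras 0.58 ± 0.18 (adjusted p = 0.265). Over both genotypes GFPhigh against GFP- gave 0.35 ± 0.13 (adjusted p = 0.506), and the interaction was 0.46 ± 0.25 (adjusted p = 0.956), or -0.18 with each array centred on its median.

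The Eif3e values within Nras and within GFPhigh cells were smaller after quantile normalization or without 2 of the arrays. In Nras, GFPhigh against GFP- was 0.11 after quantile normalization and 0.18 without replicates 1 and 2 of Nras GFPhigh, which leaves 1 array assumed to vary like the others. Without Nras GFPhigh replicate 3 it was 0.78, with an adjusted p of 0.0406; 161 of 12083 genes passed in that same fit, where 0 did with all arrays. In GFPhigh cells Nras against wild-type was 0.14 after quantile normalization and 0.26 without replicates 1 and 2. The 3 Eif3e probe sets above the array median on all arrays gave 0.58, 0.59 and 0.53 for the first comparison. They gave 0.66, 0.28 and 0.28 for Nras against wild-type in GFPhigh cells, and 0.43, 0.03 and 0.04 averaged over both populations.

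Eif3i, a subunit at the edge of the complex, read 8464, 11231 and 9578 in GFP- and 10378, 12889 and 9179 in GFPhigh cells of wild-type mice, and 9195, 10404 and 9296 in GFP- and 15327, 15872 and 10309 in GFPhigh cells of Nras mice. Again replicates 1 and 2 of Nras GFPhigh were the highest, and replicate 3 lay within Nras GFP-. In Nras the log2 fold change was 0.50 ± 0.18 (SE, adjusted p = 0.319). It was -0.0089 after quantile normalization and 0.10 without replicates 1 and 2. Over both genotypes it was 0.32 ± 0.12 (adjusted p = 0.525), and 0.02 after quantile normalization.

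**Figure D3:**
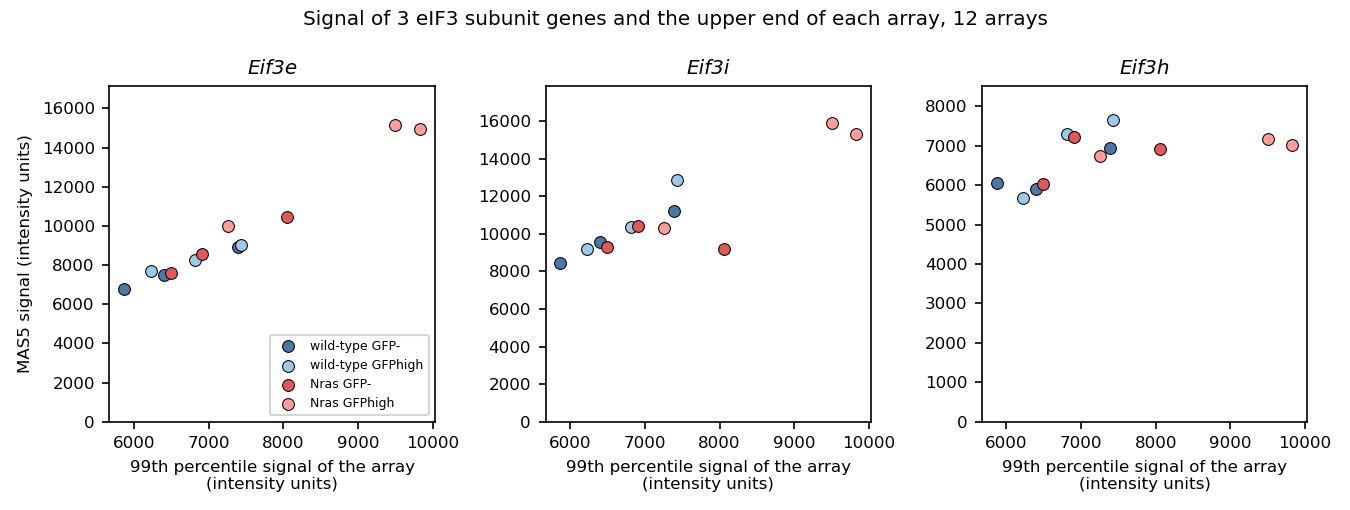
Signals of 3 eIF3 genes on the 12 arrays (vertical axis, from 0) against the 99th percentile of all signals on the same array (horizontal axis), both in MAS5 units. Eif3e and Eif3i are highest on the 2 arrays with percentiles of 9830 and 9500, and Eif3h stays between 5676 and 7643.

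Eif3a, the largest subunit, read 6381, 8072 and 7569 in GFP- and 7561, 9388 and 6406 in GFPhigh cells of wild-type mice, and 11267, 8848 and 6888 in GFP- and 10572, 9367 and 8880 in GFPhigh cells of Nras mice. Its log2 fold change for Nras against wild-type averaged over both populations was 0.29 ± 0.13 (SE, adjusted p = 0.639), and 0.04 after quantile normalization. Eif3c, another core subunit, read 4943, 4055 and 4103 in wild-type GFP- and 7198, 5601 and 4798 in Nras GFP-. The log2 fold change between these was 0.41 ± 0.22 (adjusted p = 0.983), and 0.25 without Nras GFP- replicate 1. Eif3h was the steadiest gene of the complex, with 6298 ± 571 in wild-type GFP-, 6872 ± 1050 in wild-type GFPhigh, 6725 ± 616 in Nras GFP- and 6979 ± 216 in Nras GFPhigh (SD, n = 3).

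Eif3k, a small peripheral subunit, read 2451, 2478 and 2775 in GFP- and 2958, 2176 and 2196 in GFPhigh cells of wild-type mice, and 2162, 2140 and 2018 in GFP- and 2145, 1742 and 990 in GFPhigh cells of Nras mice. All 6 Nras arrays were below all 6 wild-type arrays, by a margin of 2162 against 2176 at the nearest, and it was the only initiation factor gene of which this held, where 0.215% of all tested genes were separated in this direction. Eif3m, which contributes to the scaffold, read 4385, 4266 and 4434 in wild-type GFP- and 2751, 3480 and 3516 in Nras GFP-, without overlap. Its GFPhigh arrays read 3490, 3505 and 4245 in wild-type and 1400, 2640 and 4233 in Nras. Eif3f, a scaffold subunit, read 7872, 7740 and 6693 in wild-type GFPhigh and 10158, 8449 and 7968 in Nras GFPhigh, also without overlap.

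Of the remaining subunits, Eif3b, which contacts the ribosome's mRNA entry side, read 2416, 1095 and 1194 in Nras GFP- and 857, 733 and 1086 in Nras GFPhigh, without overlap. Eif3d, which can itself bind a cap, ranged from 1547 to 6659 and Eif3l from 553 to 2646, with overlap in all comparisons.

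The numbers of genes whose groups were fully apart lay on both sides of the background. They rest on 1 probe set per gene. Other probe sets overlapped for some genes, such as Eif4e and Eif3m in wild-type and Eif4ebp1 between the genotypes in GFPhigh cells. In wild-type, 3 genes were higher in GFPhigh without overlap (Eif5, Eif4g3 and Eif4enif1) and 4 lower (Eif2b2, Eif4g2, Eif4e and Eif3m), of 44, where all genes had 5.3% and 5.81%. In Nras, 1 was higher (Eif1b) and 2 lower (Eif4h and Eif3b), where all genes had 6.7% and 6.21%. Between the genotypes, in GFP- cells, 1 was higher in Nras (Eif4enif1) and 4 lower (Eif2b3, Eif3m, Eif2ak3 and Eif3k), against 4.07% and 6.72%. In GFPhigh cells, 5 were higher (Eif3e, Eif2s2, Eif1b, Eif4ebp1 and Eif3f) and 3 lower (Eif2b1, Eif3k and Eif4g3), against 5.12% and 7.37%. Over both genotypes none of the 44 separated GFPhigh from GFP- (0.232% and 0.339% of all genes), and over both populations none was higher in Nras (0.157%).

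The cap-binding protein eIF4E, encoded by Eif4e, read 3372, 3689 and 3173 in wild-type GFP- and 2508, 2519 and 2725 in wild-type GFPhigh. In Nras it read 1333, 4504 and 3424 in GFP- and 2692, 2282 and 2246 in GFPhigh, and only the wild-type groups were apart. A second probe set, above the array median on all 12 arrays, overlapped in wild-type. It read 1840, 2047 and 1714 in GFP- and 1671, 1629 and 1981 in GFPhigh. The relatives Eif4e2 and Eif4e3 varied more between replicates, from 266 to 4195 and from 221 to 8192.

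Eif4a1 and Eif4a2 encode the helicase. Eif4a1 averaged 5815 ± 583 in wild-type GFP-, 5038 ± 435 in wild-type GFPhigh, 5587 ± 717 in Nras GFP- and 5634 ± 1452 in Nras GFPhigh (SD, n = 3). Eif4a2 read 7343, 8814 and 7279 in wild-type GFPhigh and 11500, 10770 and 8659 in Nras GFPhigh. Its log2 fold change was 0.40 ± 0.19 (SE, adjusted p = 0.61), and -0.018 after quantile normalization. Eif4a3, whose product belongs to the exon junction complex, read 8.1 to 76.7, was above the array median on 1 array and was not tested.

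Of the helicase's partners, Eif4b ranged from 5878 to 8869 with overlap in all comparisons. Eif4h read 3663, 3368 and 2432 in GFP- and 3374, 1739 and 3203 in GFPhigh cells of wild-type mice, and 3866, 2767 and 3099 in GFP- and 1499, 1511 and 2722 in GFPhigh cells of Nras mice. In Nras all GFPhigh arrays were below all GFP- arrays, with a log2 fold change of -0.81 ± 0.37 (SE, adjusted p = 0.408); this value was singled out after it was seen. The lowest 2 of these signals were those of Nras GFPhigh replicates 1 and 2. The 3 Eif4h probe sets above the array median on all arrays gave -0.52, -0.35 and -0.43 for GFPhigh against GFP- over both genotypes. Within Nras they gave -0.81, -0.54 and -0.52, and the groups overlapped on the probe sets that were not used.

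The scaffold gene Eif4g3 read 2718, 2495 and 2721 in GFP- and 3924, 3602 and 3739 in GFPhigh cells of wild-type mice, and 7076, 2678 and 2824 in GFP- and 2969, 2468 and 2377 in GFPhigh cells of Nras mice. The 3 wild-type GFPhigh arrays were above every other array except Nras GFP- replicate 1. The log2 fold change for GFPhigh against GFP- was 0.51 ± 0.35 in wild-type (SE, adjusted p = 1.0), or 0.17 with the mean over its probe sets, and the interaction was -1.05 ± 0.49 (adjusted p = 0.956). Without Nras GFP- replicate 1 the interaction was -0.59. Nras against wild-type in GFP- cells gave 0.51 ± 0.35 (adjusted p = 0.983), and 0.057 without that array. Eif4g2, a scaffold that lacks the eIF4E site, read 4310, 5631 and 4209 in wild-type GFP- and 3311, 3925 and 4117 in wild-type GFPhigh.

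The 4E-binding proteins hold eIF4E away from the scaffold until mTOR phosphorylates them. Eif4ebp1 read 198, 430 and 477 in wild-type GFPhigh and 999, 798 and 541 in Nras GFPhigh, without overlap. Another of its probe sets, above the array median on all 12 arrays, overlapped there, with 619, 228 and 391 against 786, 276 and 506. Eif4ebp2 read 1190, 911 and 1223 in GFP- and 1033, 1048 and 736 in GFPhigh cells of wild-type mice, and 3486, 2122 and 960 in GFP- and 319, 423 and 1743 in GFPhigh cells of Nras mice. In Nras its log2 fold change for GFPhigh against GFP- was -1.64 ± 0.69 (SE, adjusted p = 0.38). It was 0.29 without the 4 arrays of lowest weight and -0.14 without Nras GFPhigh replicates 1 and 2. Eif4enif1, the eIF4E transporter, read 419, 549 and 400 in GFP- and 759, 1003 and 744 in GFPhigh cells of wild-type mice, and 793, 662 and 731 in GFP- and 1007, 202 and 1141 in GFPhigh cells of Nras mice. Wild-type GFP- was the lowest group but for Nras GFPhigh replicate 2.

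Among the late factors, Eif5a, whose hypusine-bearing product helps ribosomes through poor sequences, averaged 5885 ± 524 in GFP- and 5837 ± 525 in GFPhigh cells of wild-type mice (SD, n = 3). In Nras mice it averaged 5959 ± 1013 and 6691 ± 1585. Its relative Eif5a2 ranged from 18.0 to 418. Eif6, which keeps the ribosomal subunits apart, ranged from 578 to 2492, with both extremes in Nras. The groups of all 3 genes overlapped in every comparison.

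**Figure D4:**
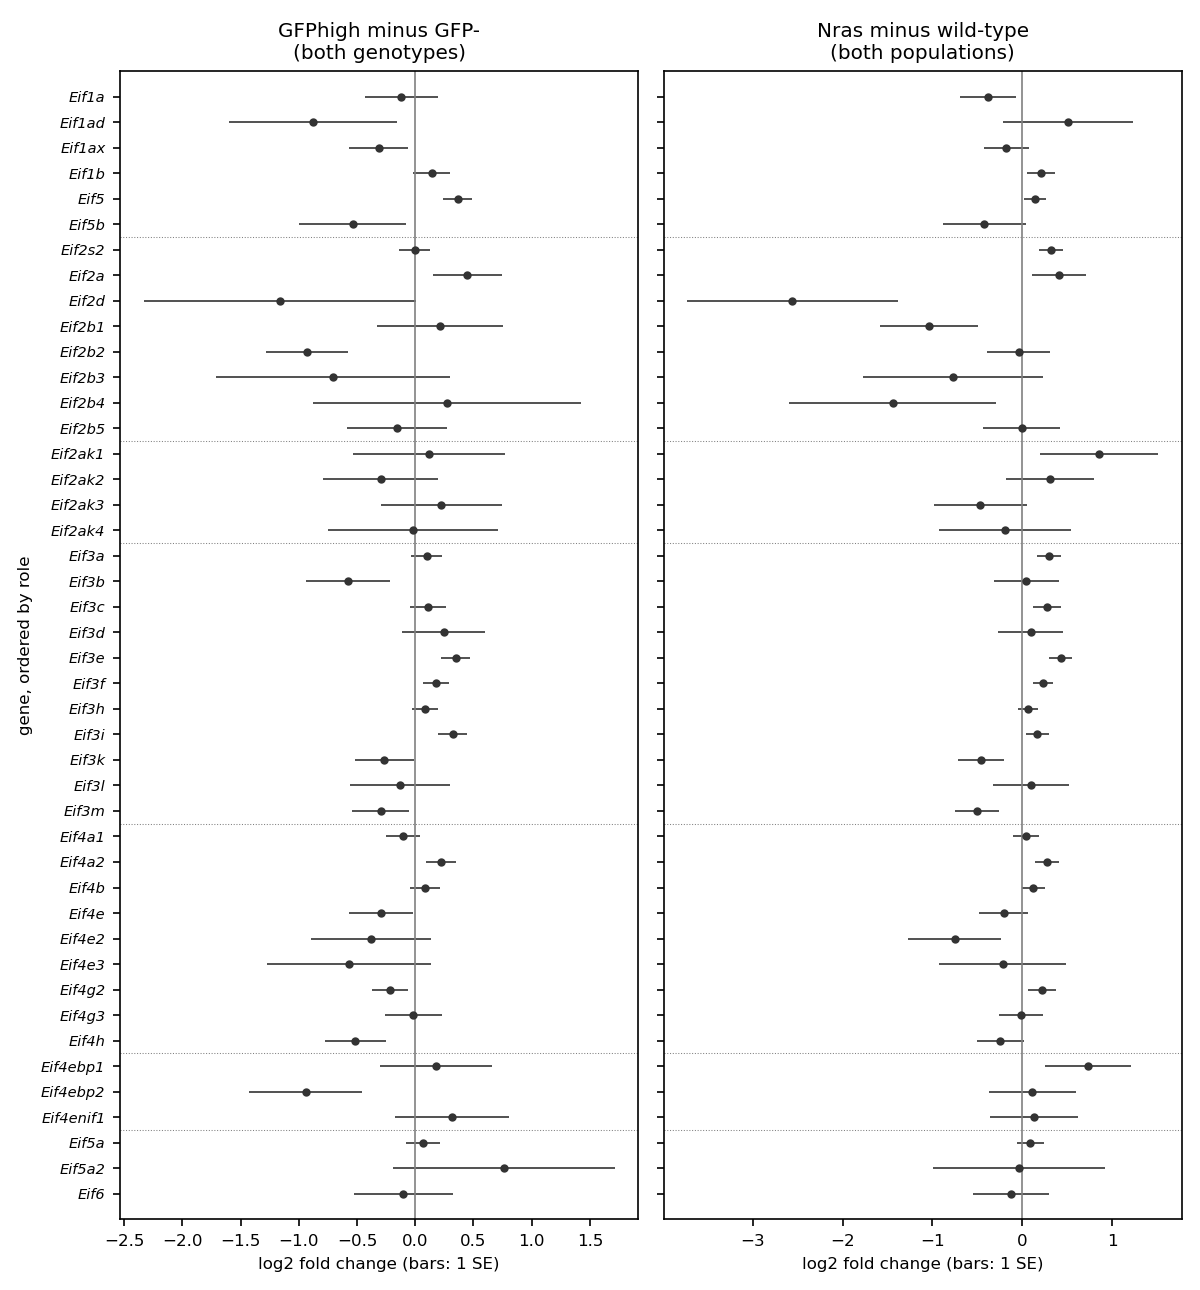
Log2 fold changes of the 44 tested genes (points) with 1 SE (bars), for GFPhigh minus GFP- over both genotypes on the left and Nras minus wild-type over both populations on the right; the 2 horizontal scales differ. The points lie on both sides of 0, and the genes with the largest values, such as Eif2d at -2.56 on the right, have the longest bars.

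Where a gene had several probe sets, they often disagreed. Of 25 genes with at least 2 probe sets above the array median on all 12 arrays, all of the gene's probe sets had the same sign in 9 for GFPhigh against GFP- over both genotypes, 2 higher and 7 lower. Over both populations it was 9 for Nras against wild-type, 4 higher and 5 lower. The count was 12 of 25 for Nras against wild-type in GFPhigh cells, and Eif3e and Eif3i were among them.

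**Figure D5:**
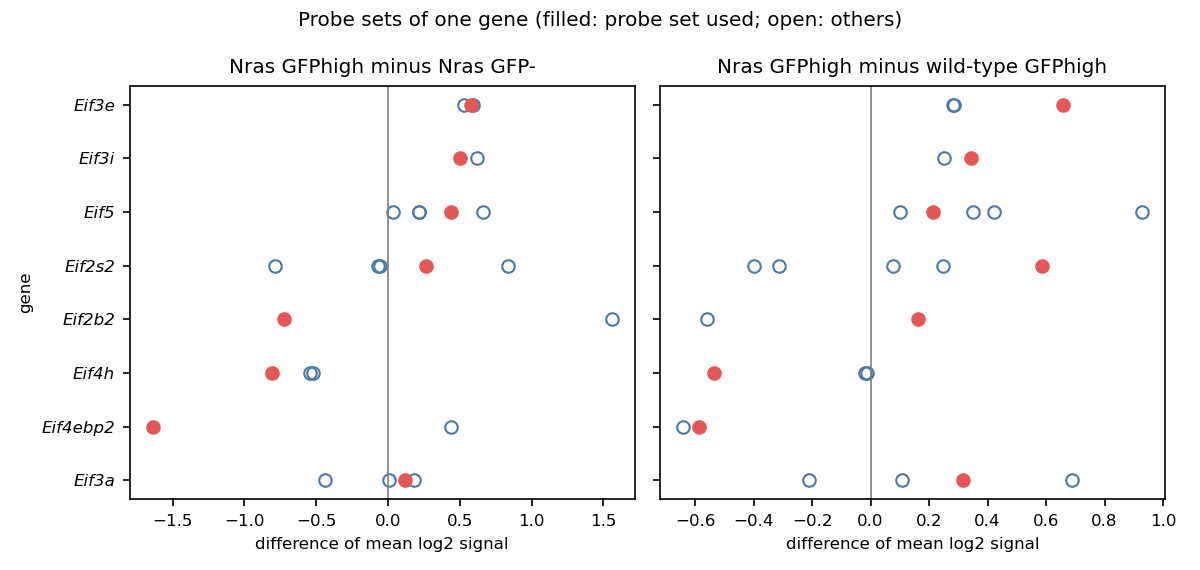
Differences of mean log2 signal for each probe set above the array median on all 12 arrays, for 8 genes; filled points are the probe sets used and open points the others. The Eif3e probe sets lie together on the left (0.53 to 0.59) and apart on the right (0.28 to 0.66), and those of Eif2b2 and Eif4ebp2 lie on both sides of 0 on the left.

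The later steps of translation gave no adjusted call either. Of 16 elongation and termination genes 15 were tested. For GFPhigh against GFP- over both genotypes 3 were higher and 2 lower at an unadjusted p under 0.05. Of all genes 4.36% were higher and 4.51% lower. The list's median was -0.03 (log2), and 0.02 over all genes. Etf1, the release factor that reads stop codons, read 2538, 2910 and 2268 in GFP- and 2260, 956 and 2052 in GFPhigh cells of wild-type mice, and 6325, 4765 and 2180 in GFP- and 490, 892 and 1835 in GFPhigh cells of Nras mice. Its log2 fold change was -1.38 ± 0.39 (SE), adjusted p = 0.416. Eef1d, of the elongation exchange factor, had 0.40 ± 0.14 (adjusted p = 0.474), with its highest signals, 15078 and 15032, on Nras GFPhigh replicates 1 and 2. Between Nras and wild-type 2 were higher and 2 lower, with a median of -0.08. All genes had 2.66% and 5.12%, with a median of -0.15. Eef1a1, which brings aminoacyl-tRNA to the ribosome, had 0.46 ± 0.15 (adjusted p = 0.579), again highest on those 2 arrays at 18389 and 20296. Eefsec, the selenocysteine elongation factor, had -2.38 ± 0.75 (adjusted p = 0.579), with 3 Nras signals below the median of their array.

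Of 23 other initiation and cap-binding genes 22 were tested. Between GFPhigh and GFP- 0 were higher and 1 lower at an unadjusted p under 0.05 (median -0.07), and for Nras against wild-type 2 higher and 2 lower (median 0.08). Of all genes 4.36% were higher and 4.51% lower in the first comparison, and 2.66% and 5.12% in the second. Their medians were 0.02 and -0.15. Larp1, which binds the cap of mRNAs for ribosomal proteins, read 3041, 3908 and 2380 in GFP- and 2243, 2366 and 2326 in GFPhigh cells of wild-type mice, and 2398, 3509 and 2954 in GFP- and 2128, 1633 and 1379 in GFPhigh cells of Nras mice. All 6 GFPhigh arrays were below all 6 GFP- arrays, by 2366 against 2380 at the nearest, which held for 0.339% of all tested genes. The log2 fold change was -0.60 ± 0.23 (SE, adjusted p = 0.525). Bzw2 had 0.52 ± 0.28 (adjusted p = 0.616). Dhx29, a helicase for structured leaders, read 416, 897 and 376 in wild-type GFP- and 128, 1235 and 514 in wild-type GFPhigh. In Nras it read 13.1, 50.1 and 151 in GFP- and 9.1, 215 and 23.3 in GFPhigh. Its log2 fold change for Nras against wild-type was -3.54 ± 0.90 (adjusted p = 0.579), of no firm size since 4 of the 6 Nras signals were below the median of their array. Gle1, a regulator of DEAD-box helicases, had -1.24 ± 0.41 (adjusted p = 0.579).

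Of 27 genes of mTOR and S6 kinase signalling 24 were tested. GFPhigh against GFP- had 1 higher and 0 lower at an unadjusted p under 0.05 (median -0.05), and for Nras against wild-type 0 higher and 1 lower (median -0.23, where all genes had -0.15). All genes had 4.36% and 4.51% in the first comparison, with a median of 0.02, and 2.66% and 5.12% in the second. Akt1s1, an inhibitor of mTOR complex activity, read 203, 126 and 101 in GFP- and 291, 496 and 216 in GFPhigh cells of wild-type mice, and 161, 177 and 178 in GFP- and 306, 399 and 303 in GFPhigh cells of Nras mice. All GFPhigh arrays were above all GFP- arrays, by 216 against 203 at the nearest, which held for 0.232% of all tested genes. The log2 fold change was 1.08 ± 0.46 (SE, adjusted p = 0.55). Sesn1, a leucine-sensing inhibitor of mTOR signalling, had 0.62 ± 0.30 (adjusted p = 0.59). Between Nras and wild-type, Lamtor2, of the lysosomal anchor of mTOR complexes, had -0.72 ± 0.32 (adjusted p = 0.631), and Mknk2, a kinase of eIF4E, had 0.31 ± 0.17 (adjusted p = 0.668).

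Of 25 stress response genes, listed as targets of eIF2 phosphorylation, 23 were tested. The list also holds chaperone genes of the endoplasmic reticulum, and eIF2 phosphorylation itself was not measured. GFPhigh against GFP- had 1 higher and 4 lower at an unadjusted p under 0.05, with a median of -0.39, and 0 passed after adjustment; all genes had 4.36% and 4.51%, with a median of 0.02. The list's median was -0.02 within wild-type and -0.39 within Nras, a difference that was not tested. Dnajb9, a chaperone partner of the endoplasmic reticulum, read 3100, 3517 and 3801 in GFP- and 3589, 4558 and 4099 in GFPhigh cells of wild-type mice, and 1785, 2903 and 2987 in GFP- and 6267, 6291 and 4957 in GFPhigh cells of Nras mice. The 3 Nras GFPhigh arrays were the highest of the 12, and how many of all tested genes had this was not counted. The log2 fold change of Dnajb9 over both genotypes was 0.73 ± 0.18 (SE, adjusted p = 0.301). Slc7a5, a transporter of large neutral amino acids, read 325.6 to 799 in wild-type GFPhigh, 404 to 807 in wild-type GFP-, 395 to 2363 in Nras GFP- and 7.1 to 92.3 in Nras GFPhigh. Its log2 fold change was -2.45 ± 0.71 (adjusted p = 0.416), and Nras GFPhigh replicates 1 and 2 were below the median of their array. In Nras against wild-type 1 was higher and 3 lower at an unadjusted p under 0.05 (median 0.02). All genes had 2.66% and 5.12% (median -0.15). Hspa5, the chaperone BiP, had 0.47 ± 0.17 (adjusted p = 0.594) and Nupr1 -1.99 ± 0.78 (adjusted p = 0.608).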

How the data were processed

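The authors deposited one linear intensity (MAS5 signal) per probe set and array, made with MAS5 per the submitters' processing notes. Its version is not given in the sources used here. Signals were taken to log2, 3 values at 0 being set to 0.1, and were not normalized further. Gene names came from the platform annotation: 34945 probe sets had 1 symbol, 932 several and 9160 none, and 64 were controls. A gene's brightest probe set by mean log2 signal stood for it, and genes above the array median on at least 3 arrays were tested. A limma 3.58.1 model (R 4.3.3) with a mean per group and an intensity trend in the prior variance gave 7 comparisons, Benjamini-Hochberg adjusted over 12083 genes. SE is limma's moderated standard error. Positive values mean higher in GFPhigh or in Nras. The number of arrays limits the precision, and as the labels call replicates biological without naming separate mice, p values measure only the spread between these samples.

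Fold changes are given for members at an adjusted p under 0.05, for the 4 members of smallest p in each comparison and for the 2 genes of smallest p per list in both averaged comparisons; other members are given by level. The members and lists were chosen with earlier results of these data known. The model was tested on simulated data. Alternatives were other normalizations, filters, probe set choices, variance models, array weights, a replicate block and leaving out arrays.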

Additional observations from a re-analysis of the deposited data

How the results depend on the processing

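The count of initiation factor genes at an adjusted p under 0.05 stayed at 0 in all 7 comparisons and every alternative but 1. For GFPhigh against GFP- in Nras, leaving out each array in turn gave 0 to 1, the 1 being Eif3e without Nras GFPhigh replicate 3 (0.78, adjusted p = 0.0406), where 161 of 12083 genes passed; over all alternatives its adjusted p ran from 0.0406 to 0.964. Centring each array on its median moved the median of all genes by over 0.1 in 6 of the 7 comparisons, in Nras from 0.08 to -0.41; for Nras against wild-type in GFPhigh cells it went from -0.09 to -0.12. The members' medians moved with it, to -0.19 for GFPhigh against GFP- over both genotypes, 0.089 in wild-type and -0.57 in Nras. They became 0.34 for Nras against wild-type over both populations, 0.65 in GFP- and -0.59 for the interaction. The median for GFPhigh against GFP- in Nras was 0.089 without the 4 arrays of lowest weight, 0.085 without Nras GFPhigh replicates 1 and 2, an alternative chosen after seeing the data, and -0.16 to 0.084 leaving out each array. For Nras against wild-type the GFP- median was -0.086 after quantile normalization and -0.19 with the mean over probe sets. The GFPhigh median was -0.12 after quantile normalization and -0.051 to 0.27 leaving out each array. Of 28 gene results, 10 changed sign somewhere. With the mean over probe sets Eif2b2 became 0.36 over both genotypes and 0.16 in wild-type, Eif5 -0.052 in wild-type, and Eif2s2 -0.0016 for Nras against wild-type. Without shared probe sets Eif2s2 became -0.23. Quantile normalization gave -0.0089 for Eif3i (GFPhigh against GFP- in Nras) and -0.018 for Eif4a2 (Nras against wild-type in GFPhigh). Median centring gave -0.051 for Eif5 in Nras and interactions of -0.099 for Eif2s2 and -0.18 for Eif3e. Without the 4 arrays of lowest weight Eif4ebp2 became 0.29 in Nras. The cause of these changes was not tested.

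With the replicate number as a block, 0 members passed; fold changes cannot move in this balanced design, and the median for GFPhigh against GFP- over both genotypes was again -0.02. Of 18 pairs of arrays with the same number, correlations of deviations ran from -0.044 to 0.15 and 3, all between arrays numbered 3, exceeded 0.1. Of 36 pairs with different numbers 0 did, the highest being 0.073. Most pairs with the same number were under 0.1, which does not settle whether the numbers pair the samples. The main fit did not use the numbers, so any effect shared by arrays of one number stayed in its SE. Of the 12 arrays 11 correlated best with one of their own number, a hint from the data and not from the design. A fit of only the groups compared was not run for the averaged comparisons and the interaction, which use all groups. Shared probe sets were taken as those with names ending in _s_at, _x_at or _a_at, whether or not they match another gene. Genes with only such probe sets, such as Eif2b2, have no value without them. Eif3e has none either, as its only unshared probe set was above the array median on 0 arrays.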

Other observations

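Eif4a3, whose product marks spliced exon junctions, was near background on its single-symbol probe set, but a brighter probe set is annotated to both Gm5576 and Eif4a3 and was left out by the rule on symbols. It read 3111, 2958 and 2719 in GFP- and 1744, 2207 and 2159 in GFPhigh cells of wild-type mice, and 4159, 3206 and 3366 in GFP- and 2196, 1866 and 1774 in GFPhigh cells of Nras mice. All 6 GFPhigh arrays were below all 6 GFP- arrays, which held in this direction for 0.348% of 28183 probe sets tested one by one. The log2 fold change was -0.70 ± 0.20 (SE, adjusted p = 0.458). It was -0.69 after quantile normalization with the arrays still apart, -0.87 after median centring with the arrays no longer apart, and -0.74 without the 4 arrays of lowest weight. This probe set was picked out after its values were seen, and its signal is assigned to neither symbol alone.

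Another probe set, annotated to both Eif3j1 and Eif3j2, copies of an eIF3-associated factor, averaged 4242 ± 642 in wild-type GFP-, 4378 ± 859 in wild-type GFPhigh, 5577 ± 1398 in Nras GFP- and 7919 ± 3940 in Nras GFPhigh (SD, n = 3), with 12289 on Nras GFPhigh replicate 2. For Nras against wild-type over both populations it gave 0.57, and 2 dimmer probe sets with the same symbols gave -0.59 and -0.99; none of the 3 passed after adjustment.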
